A study of Mus musculus with 9 samples.

Results

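The ephrin, Slit-Robo and netrin guidance genes were taken as every protein-coding mouse gene whose symbol is Epha, Ephb, Efna, Efnb, Slit, Robo or Ntn followed by a digit, with Ntng1, Ntng2 and the Unc5a to Unc5d receptors. This rule uses names only and gave 39 genes, of which 38 were matched to the 41128 genes of the count table; Ntn3 was not analysed here. Of the 38, 36 passed the filter on low counts, and Epha1 and Ntn5 did not. RNA-seq was done on dorsal telencephalon, which gives rise to the cerebral cortex and hippocampus, from newborn (postnatal day 0) mice of the strain labelled B6:129SF2/J. There were 3 libraries labelled WT, 3 labelled TCF4 heterozygote (Het) and 3 labelled TCF4 knockout (KO). The allele, the pups' sex and litter, and any pooling of pups are not given in the sources used here. The labels do not say that the libraries came from separate animals, so the p-values cover only the spread among the 3 libraries of each genotype. The question posed by the design is which transcripts differ with the Tcf4 genotype.

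Guidance genes encode cues and receptors that steer growing axons and migrating neurons. Ephrins are membrane-bound ligands, tethered by a lipid anchor (ephrin-A) or a transmembrane segment (ephrin-B), and Eph receptors are the receptor tyrosine kinases that bind them, usually with repulsion as the outcome and with signals passing in both directions. Slits are secreted repellents read by Robo receptors, known for keeping corticofugal axons off the midline and for guiding tangentially migrating interneurons. Netrin-1 is a secreted cue that attracts through Dcc and repels through Unc5 receptors, whereas the netrin-Gs are anchored to the axon membrane and bind synaptic adhesion partners. TCF4 belongs to the E-proteins, broadly expressed bHLH transcription factors that bind the E-box as dimers, often with a lineage-specific partner.

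Total counts ran from 22291940 to 23813314 in WT, from 24008445 to 29398411 in Het and from 26355671 to 29445788 in KO libraries. CPM, counts relative to the library total scaled by TMM factors, are used for comparisons of a gene between libraries, and FPKM, the deposited value per length, for comparisons of level between genes. Tcf4 itself was counted at 712, 728 and 584 CPM in WT, 822, 652 and 719 CPM in Het and 638, 633 and 611 CPM in KO libraries. The Tcf4 ranges overlapped between WT and each other genotype, and its log2 fold change was -0.10 ± 0.09 (SE, adjusted p = 0.36) for KO versus WT, 0.12 ± 0.09 (adjusted p = 0.33) for Het versus WT and -0.22 ± 0.09 (adjusted p = 0.13) for KO versus Het. Without WT replicate 3, Tcf4 passed the threshold in KO versus WT (-0.20, adjusted p = 0.046) and in KO versus Het (adjusted p = 0.043), and in the latter also without Het replicate 2 (adjusted p = 0.041). Gene-level Tcf4 counts thus did not check the labels, and every direction below rests on the libraries as labelled. The 8 dorsal forebrain neuron markers, among them Emx1, Neurod6 and Tbr1, summed to 1580 to 1820 CPM in WT, 1710 to 1958 in Het and 1772 to 1894 in KO libraries, so markers of the labelled tissue were present in every library.

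Summed over the guidance genes, the share of the counts was larger in KO than in WT libraries. Together they held 0.291%, 0.284% and 0.272% of all counts in WT, 0.298%, 0.292% and 0.300% in Het and 0.318%, 0.328% and 0.321% in KO libraries, with no overlap between genotypes. A large part of the rise in this sum came from Robo1, with means of 223 CPM in WT, 300.5 CPM in Het and 490 CPM in KO libraries. In KO versus WT, 14 of the 36 tested genes rose and 11 fell at an adjusted p under 0.05. Over all 15271 genes tested, 26.5% were called higher and 26.3% lower, 52.8% in all, against 69.4% of the guidance genes. Counting only calls of at least 1.5-fold gave 16 of 36, where 22.4% of all genes passed. In Het versus WT, 15 rose and 11 fell, or 72.2%, beside 22.5% higher, 23.4% lower and 45.9% in all over the whole table. Of these, 5 reached 1.5-fold, where the share over all genes was 16.5%. In KO versus Het, 11 rose and 8 fell, or 52.8%, beside 8.30% higher, 8.44% lower and 16.7% in all. There, 6 reached 1.5-fold, where the share over all genes was 4.81%.

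The median log2 fold change of the guidance genes stayed near that of all genes, at 0.036 beside 0.009 for KO versus WT, 0.07 beside 0.013 for Het versus WT and 0.022 beside 0.004 for KO versus Het, so the differences ran in both directions. Guidance genes are counted more deeply than most, and among the 10132 genes averaging 3 or more on the log2 CPM scale, 57.6%, 51.0% and 20% (2031 genes) were called in these 3 comparisons, against 67.7%, 74.2% and 51.6% of 31 guidance genes. The KO versus WT and Het versus WT comparisons share the WT libraries, and each comparison with KO versus Het shares a group as well. In KO versus WT, the EphA, EphB, ephrin-A, netrin-G and Robo families each held calls in both directions. No ephrin-B or Unc5 gene fell and no Slit or secreted netrin rose in that comparison, with 2 of 3 ephrin-B ligands and 3 of 4 Unc5 receptors higher. These 4 families hold only 2 to 4 tested genes each. Over all genes, 26.5% were higher and 26.3% lower, so a missing direction is not read as a trait of a family.

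**Figure D1:**
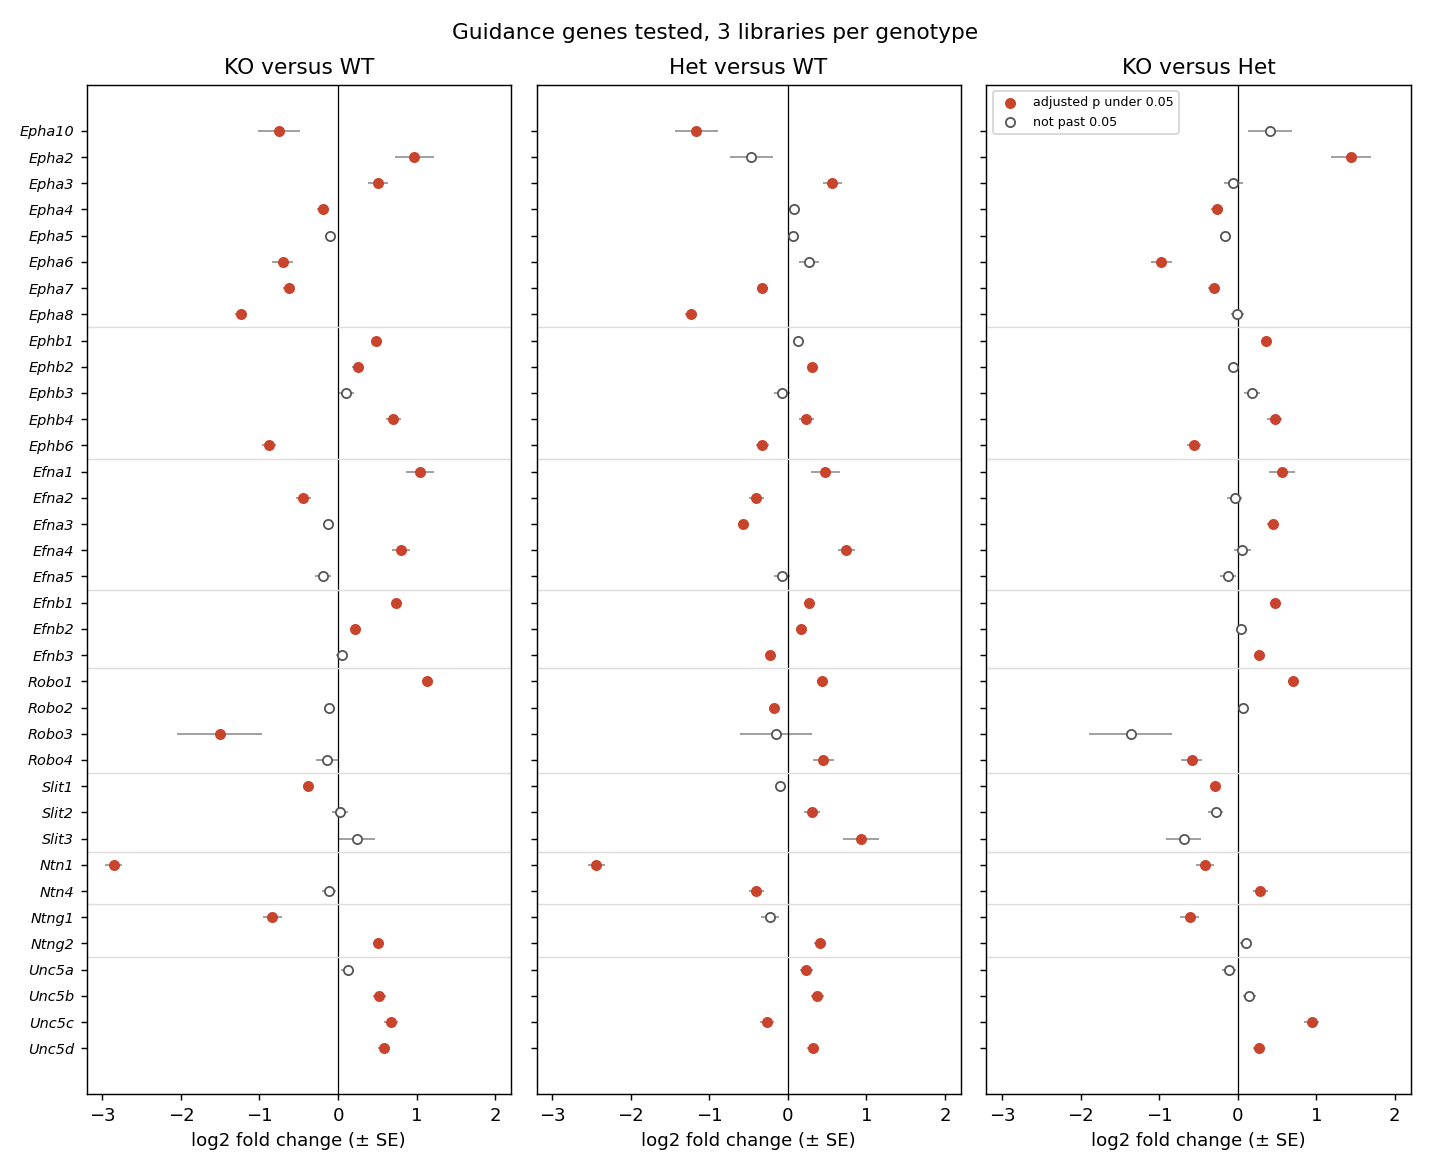
Log2 fold change (horizontal axis, ± SE) of the 36 tested guidance genes, grouped by family, in KO versus WT, Het versus WT and KO versus Het; filled points passed an adjusted p of 0.05. Ntn1 lies farthest left in the first 2 panels at -2.86 and -2.44, and Robo1 farthest right in KO versus WT at 1.14.

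Promoter windows from RefSeq (build GRCm38.p6, 250 bases before to 50 after each start site) were available for 35 of the 39 genes, in 40 windows; Ntn1, Slit1, Unc5d and Efnb3 are named without one. The E-box, CANNTG, reads the same pattern on both strands and occurred in 18 of the 40 windows (45.0%), beside 72.3% of 32851 windows of all genes. Among its forms, CATCTG or its complement CAGATG was in 4 of the guidance windows and 17.2% of all windows. CAGCTG, its own complement, was in 6 guidance windows and 16.3% of all windows. CACCTG or its complement CAGGTG was in 5 guidance windows (12.5%) and 20.2% of all windows. Each of these forms is also a CANNTG match. The guidance windows had a median GC content of 64.5%, beside 52.7% for all windows, and the part of base composition in the E-box share was not tested. The windows below are shown because they belong to receptor genes that moved in opposite directions in KO versus WT and span the range from no E-box to 5; capitals mark each CANNTG match.
Robo1, chr16:72662899-72663198, plus strand, 3 matches: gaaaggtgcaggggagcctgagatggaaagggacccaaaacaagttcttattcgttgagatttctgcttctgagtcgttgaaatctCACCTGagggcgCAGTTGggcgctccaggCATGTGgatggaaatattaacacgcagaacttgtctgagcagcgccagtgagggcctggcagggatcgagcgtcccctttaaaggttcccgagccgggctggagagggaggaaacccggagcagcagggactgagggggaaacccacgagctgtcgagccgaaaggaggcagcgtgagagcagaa
Unc5c, chr3:141465314-141465613, plus strand, no match: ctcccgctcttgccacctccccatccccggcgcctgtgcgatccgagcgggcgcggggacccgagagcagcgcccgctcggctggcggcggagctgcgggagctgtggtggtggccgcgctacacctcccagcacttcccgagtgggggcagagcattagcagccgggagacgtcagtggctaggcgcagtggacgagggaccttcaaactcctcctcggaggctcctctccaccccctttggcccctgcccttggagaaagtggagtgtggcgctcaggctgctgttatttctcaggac
Epha8, chr4:136956767-136957066, minus strand, 1 match: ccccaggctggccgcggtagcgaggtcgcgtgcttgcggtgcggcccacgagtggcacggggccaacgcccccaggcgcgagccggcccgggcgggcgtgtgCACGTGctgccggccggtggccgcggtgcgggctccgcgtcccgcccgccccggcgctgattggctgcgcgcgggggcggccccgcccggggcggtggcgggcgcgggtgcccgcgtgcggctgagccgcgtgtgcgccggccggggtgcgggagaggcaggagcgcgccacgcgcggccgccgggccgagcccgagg
Epha6, chr16:60605482-60605781, minus strand, 5 matches: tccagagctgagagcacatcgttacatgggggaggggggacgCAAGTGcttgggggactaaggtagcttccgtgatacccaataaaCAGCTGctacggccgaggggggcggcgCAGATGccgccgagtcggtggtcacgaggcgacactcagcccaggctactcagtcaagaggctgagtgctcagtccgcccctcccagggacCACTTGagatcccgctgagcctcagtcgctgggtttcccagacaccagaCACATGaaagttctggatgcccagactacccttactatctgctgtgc
Robo1 rose and its window held a CACCTG beginning 164 bases before the start site; Unc5c also rose and had no match. Epha8 and Epha6 fell, with 1 match and 5 matches, of which Epha6 had a CAGCTG and a CAGATG. These 4 genes were chosen by direction and match count, so they cannot show whether match count follows direction, which was not tested. A match is a description of the letters only, and the RefSeq start of Robo1 lies inside its GENCODE M21 gene model, which begins at 72308306.

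**Figure D2:**
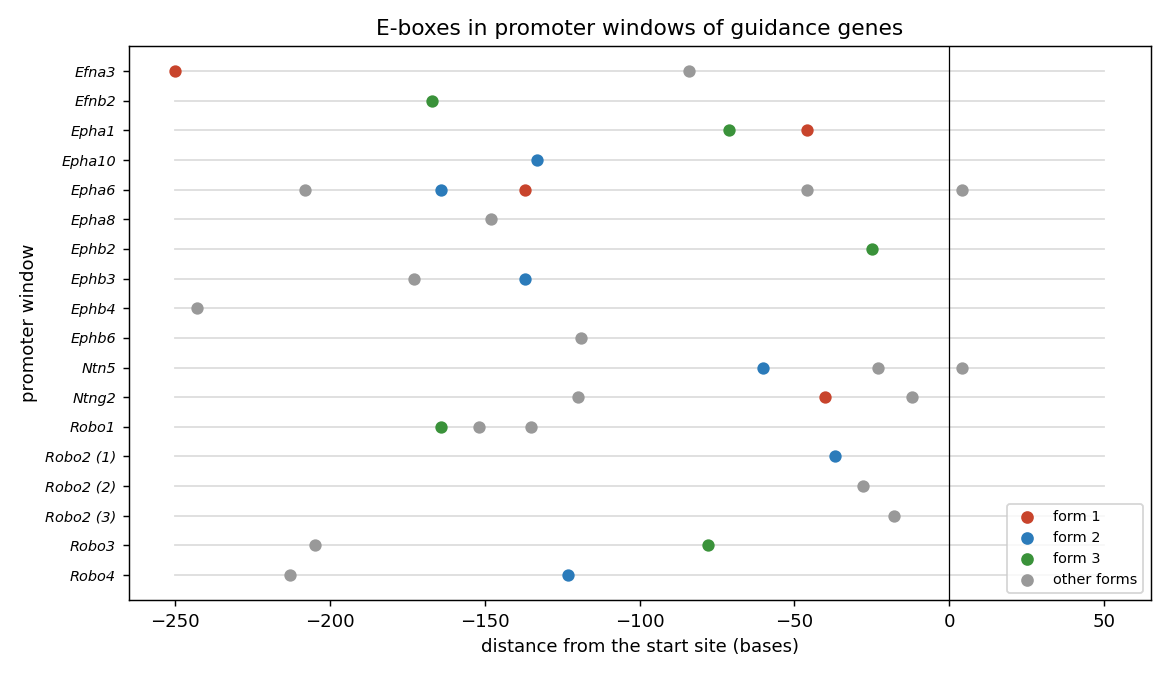
Distance of each E-box from the start site (horizontal axis, bases) in the 18 guidance-gene windows that hold at least 1; form 1 is CATCTG or CAGATG, form 2 CAGCTG and form 3 CACCTG or CAGGTG. Epha6 has 5 matches, the most of any guidance window, and all but 2 matches lie before the start site.

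Levels per length in WT libraries spanned 4 families at the top. Efnb3, an ephrin-B ligand, had the highest mean at 124 ± 9.95 FPKM (SD), followed by Robo2 at 96.9 ± 3.80, Efnb2 at 85.0 ± 5.35, Ephb6 at 82.1 ± 5.69 and Epha4 at 66.2 ± 7.65 FPKM. A middle group between 20 and 45 FPKM held Efna3, Efnb1, Ephb2, Ntng2, Epha5, Unc5a, Ephb1, Robo1, Epha7, Efna2 and Slit1. In order, Ntn1, Unc5c, Epha3, Slit2, Epha8, Ephb3, Efna5, Ntng1, Ntn4, Unc5d, Slit3, Epha6, Efna4, Unc5b, Ephb4, Efna1, Epha10, Robo4 and Epha2 ran from 11.3 down to 1.13 FPKM. Robo3 had 0.186, Epha1 0.0437 and Ntn5 0.0093 FPKM. A mean of at least 1 FPKM was seen for 35 of the 38 genes. Of the 37 neighbouring pairs in this order, 21 had overlapping ranges over the WT libraries, so their order does not stand beyond the spread. The gene length implied by the deposited FPKM was 10.5% (Slit2) to 100% of the length of all annotated exons joined. Scaled by the joined exons instead, Robo2 moved from rank 2 to 8, Unc5c from 18 to 27 and Slit2 from 20 to 33, so levels of genes with long untranslated or alternative exons depend on the length used.

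**Figure D3:**
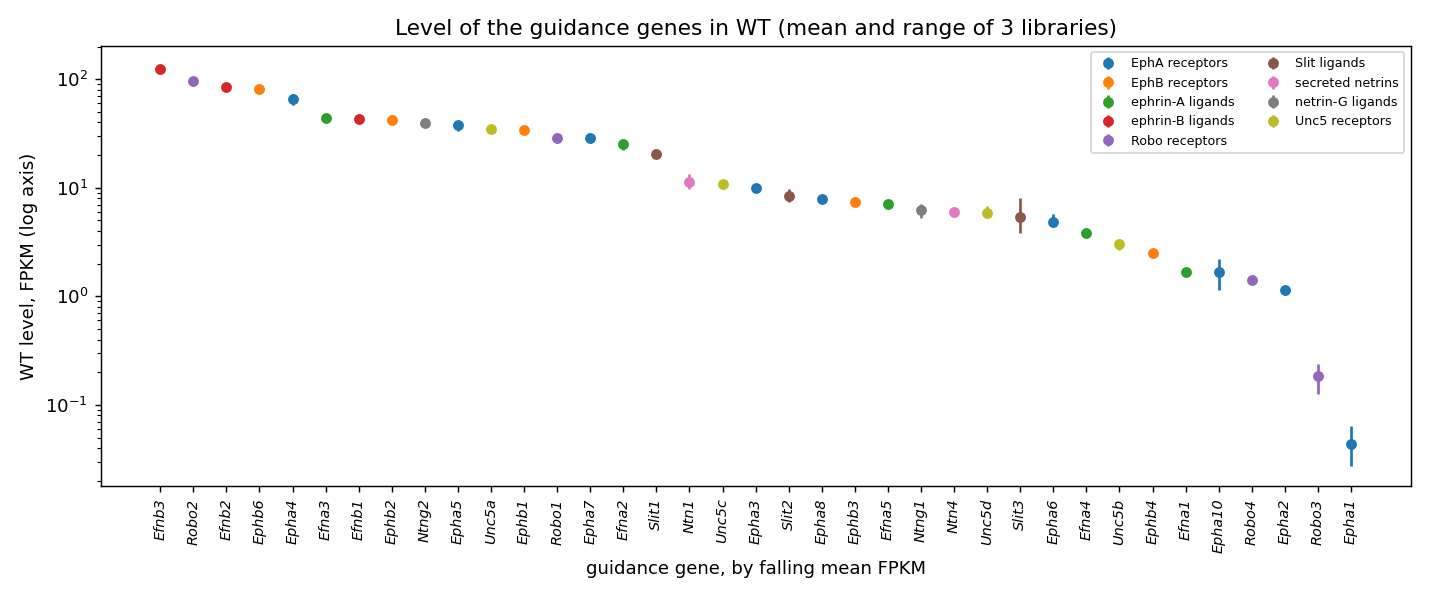
Level of each guidance gene in WT (vertical log axis, FPKM), mean and range of 3 libraries, ordered by mean and coloured by family; Ntn5, at 0 in 2 WT libraries, is not drawn. Efnb3 stands highest at 124 FPKM and Robo3 and Epha1 lie below 1.

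The largest difference of any guidance gene from WT was that of a secreted netrin. Ntn1 (ENSMUSG00000020902, chromosome 11, 68209364 to 68400823, minus strand, mm10), which encodes netrin-1, was at 56.2, 42.5 and 46.3 CPM in WT, 9.06, 8.83 and 8.85 CPM in Het and 7.39, 6.55 and 6.08 CPM in KO libraries. Every WT library stood far above every Het and KO library, and the Het and KO ranges did not meet either. Ntn1 fell 7.24-fold in KO versus WT (log2 fold change -2.86 ± 0.11 SE, adjusted p = 2.2e-12) and 5.42-fold in Het versus WT (-2.44 ± 0.10, adjusted p = 1.5e-11). In KO versus Het it fell by 0.42 ± 0.11 on the log2 scale (adjusted p = 0.018), a call lost without KO replicate 2 or KO replicate 3 (adjusted p up to 0.069). That call was also lost with limma on log2(FPKM + 1) (adjusted p = 0.1) and on log2(FPKM + 0.1) (adjusted p = 0.054). In bulk tissue, fewer cells of a type and less RNA per cell cannot be told apart, here and in the results that follow.

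Markers of striatal neurons, a ventral cell type, moved with Ntn1. Their list summed to 602 to 641 CPM in WT, 173 to 200 CPM in Het and 188 to 206 CPM in KO libraries, and 17 of 17 markers fell in Het versus WT and 16 of 17 in KO versus WT. Isl1, a transcription factor of striatal projection neurons, was at 14.2, 11.3 and 11.5 CPM in WT and at 0 in Het replicate 1 and KO replicate 2, with at most 0.133 CPM in the other Het and KO libraries. Interneuron markers summed to 784 to 830 CPM in WT, 613 to 692 in Het and 574 to 637 in KO libraries, with 8 of 12 lower in Het and 9 of 12 lower in KO. Oligodendrocyte lineage markers, including Olig1 and Pdgfra, summed to 391 to 424, 207 to 212 and 206 to 239 CPM, with 7 of 7 lower in both. Astrocyte markers summed to 972 to 1012, 566 to 601 and 515 to 591 CPM, with 7 of 8 lower in both. Microglial markers summed to 90.6 to 102, 47.8 to 51.2 and 52.8 to 54.7 CPM, with 6 of 7 lower in Het and 5 of 7 lower in KO. These marker lists were chosen with earlier results of these data known, so their falls are no independent evidence. The part of these cell types in the Ntn1 difference was not tested. A difference in the tissue dissected and a difference by genotype cannot be told apart in these 9 libraries, for Ntn1 as for Epha8 and Ngef below.

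Ntn4, a laminin-like secreted netrin, was at 12.3, 13.3 and 13.5 CPM in WT, 9.80, 10.2 and 9.61 CPM in Het and 12.1, 11.6 and 12.3 CPM in KO libraries. It fell in Het versus WT (log2 fold change -0.40 ± 0.10, adjusted p = 0.0023). Its rise in KO versus Het (0.29 ± 0.09, adjusted p = 0.045) was lost without any 1 of the 9 libraries (adjusted p 0.05 to 0.13). Ntn5 had at most 0.305 CPM in any library and Epha1 at most 0.215 CPM, and neither was tested.

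The netrin-Gs moved in opposite directions. Ntng1 (ENSMUSG00000059857, chromosome 3, 109780040 to 110144011, minus strand), the partner of the synaptic adhesion protein encoded by Lrrc4c, was at 16.6, 12.6 and 14.8 CPM in WT, 11.3, 14.0 and 12.2 CPM in Het and 8.054, 7.997 and 8.533 CPM in KO libraries. Het overlapped WT and every KO library was lower than both. Ntng1 fell in KO versus WT (log2 fold change -0.84 ± 0.12, adjusted p = 1.6e-05) and in KO versus Het (-0.61 ± 0.12, adjusted p = 0.0016); Het versus WT was -0.22 ± 0.11 (adjusted p = 0.12), and passed without WT replicate 2 (-0.32, adjusted p = 0.037). Ntng2, which binds the Lrrc4 protein, was at 46.6 to 52.2 CPM in WT, 60.4 to 71.7 CPM in Het and 66.8 to 75.6 CPM in KO libraries. Ntng2 rose in KO (log2 fold change 0.51 ± 0.07, adjusted p = 1.8e-05) and in Het (0.41 ± 0.07, adjusted p = 0.00024) against WT. Of its bases, read as 31-base words, 11.7% also occur in transcripts of other genes.

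**Figure D4:**
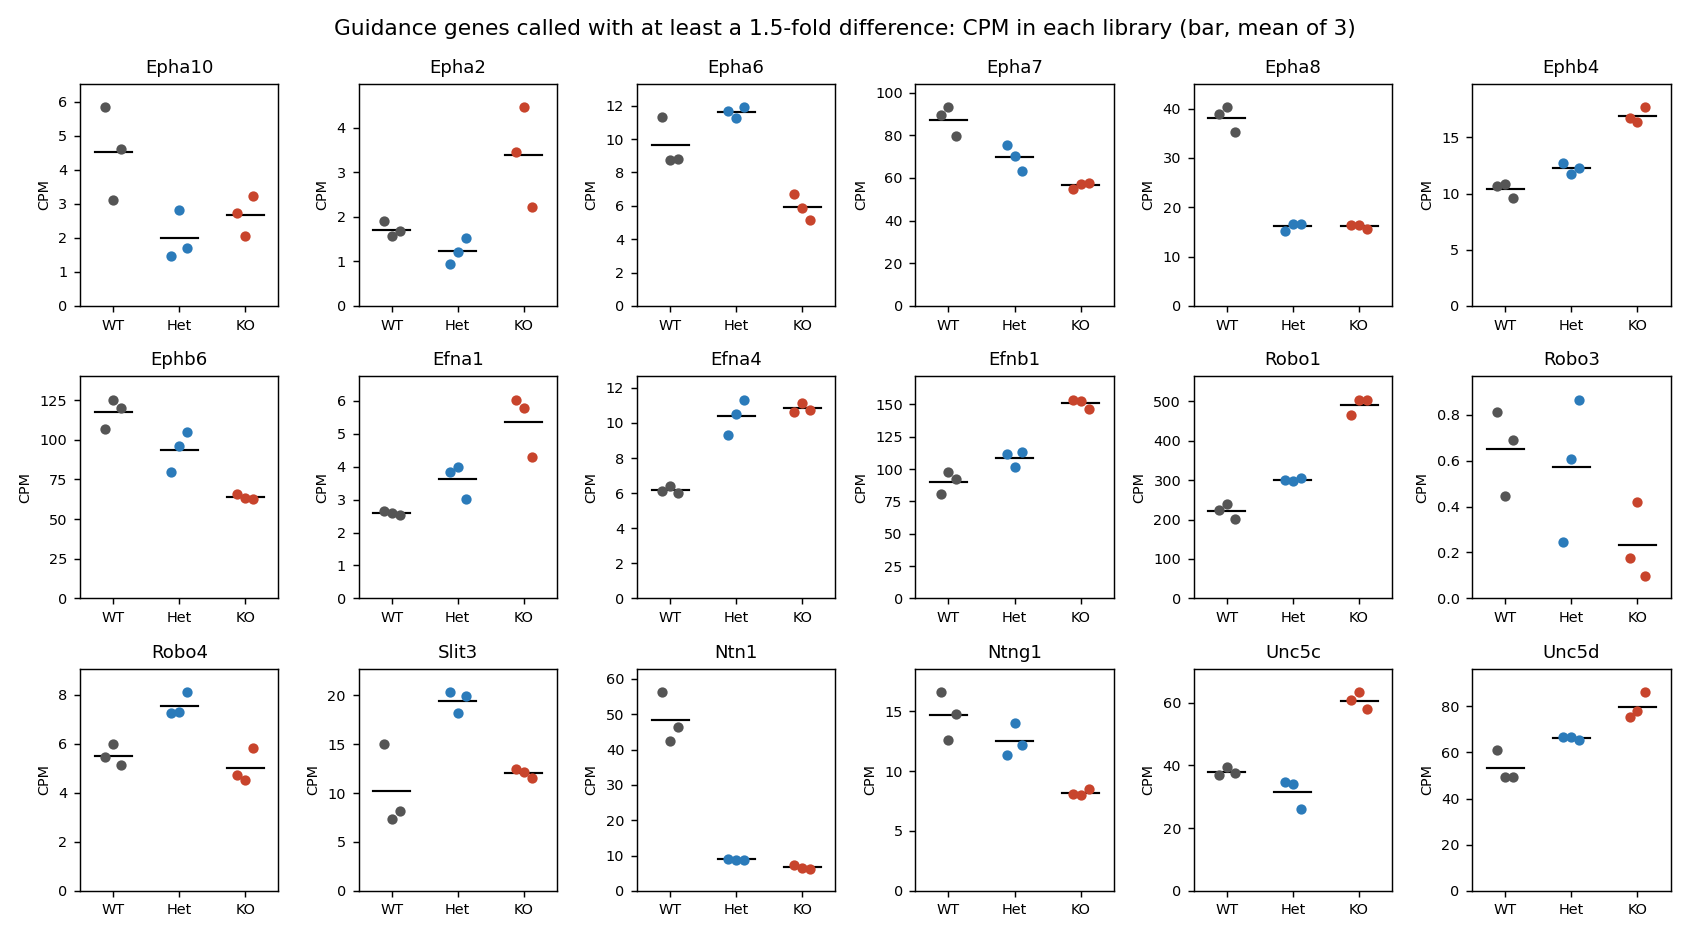
CPM (vertical axis of each panel, from 0) of the 18 guidance genes called with at least a 1.5-fold difference in 1 or more comparisons; each point is 1 library and each bar the mean of 3. Ntn1 and Epha8 have Het close to KO, Robo1, Efnb1 and Ephb6 have Het between WT and KO, and Slit3 and Robo4 have Het highest.

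Of the Unc5 receptors, which mediate repulsion from netrin-1, 3 of 4 rose in KO versus WT. Unc5c (ENSMUSG00000059921, chromosome 3, 141465216 to 141834924, plus strand), whose window above holds no E-box, was at 36.9, 39.5 and 37.6 CPM in WT, 34.8, 33.9 and 26.2 CPM in Het and 60.8, 63.2 and 57.9 CPM in KO libraries. The groups did not overlap, with Het lowest and KO highest. Unc5c rose in KO versus WT (log2 fold change 0.67 ± 0.09, adjusted p = 9.6e-06) and in KO versus Het (0.94 ± 0.09, adjusted p = 1.8e-06). It fell in Het versus WT (-0.27 ± 0.09, adjusted p = 0.025), a call lost without WT replicate 2, WT replicate 3 or Het replicate 3; without Het replicate 3 the value was -0.14. Some of its exons overlap a gene on the other strand, and whether the counting used strand is not given.

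Unc5d (ENSMUSG00000063626, chromosome 8, 28646717 to 29219636, minus strand), a receptor known from migrating cortical neurons, was at 60.8, 49.4 and 49.3 CPM in WT, 66.9, 66.5 and 65.5 CPM in Het and 75.5, 77.8 and 86.0 CPM in KO libraries. The genotypes did not overlap, and the level was lowest in WT and highest in KO. Unc5d rose in KO versus WT (log2 fold change 0.59 ± 0.08, adjusted p = 8.5e-06) and in Het versus WT (0.32 ± 0.08, adjusted p = 0.0031). In KO versus Het it rose by 0.27 ± 0.08 on the log2 scale (adjusted p = 0.024), which was lost without Het replicate 1, Het replicate 2, Het replicate 3, KO replicate 2 or KO replicate 3 (adjusted p up to 0.12). With limma on log2(FPKM + 1) or log2(FPKM + 0.1) that call was lost as well (adjusted p = 0.14). Unc5b, also known from vessel sprouting, was at 16.2 to 19.6 CPM in WT, 21.9 to 24.7 CPM in Het and 25.8 to 26.6 CPM in KO libraries, and rose against WT in both (0.52 ± 0.09, adjusted p = 6.3e-05, and 0.38 ± 0.09, adjusted p = 0.0017). Unc5a rose in Het versus WT (0.24 ± 0.09, adjusted p = 0.036), a call lost without WT replicate 2, WT replicate 3 or Het replicate 3. Its KO versus WT value was 0.12 ± 0.09 (adjusted p = 0.24), and 0.21 (adjusted p = 0.031) without KO replicate 3.

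Among 12 netrin co-receptors and partners outside the naming rule, 6 rose and 3 fell in KO versus WT. In Het versus WT 5 rose and 4 fell, and in KO versus Het 3 rose and 3 fell. The shares called were 75%, 75% and 50%, beside 52.8%, 45.9% and 16.7% of all genes. Dcc, the attractive netrin-1 receptor, was at 46.1, 32.4 and 26.3 CPM in WT, 62.1, 61.9 and 73.0 CPM in Het and 51.9, 52.0 and 52.0 CPM in KO libraries. Every Het and KO library was higher than every WT library, and WT varied most. Dcc rose in Het versus WT (log2 fold change 0.91 ± 0.18, adjusted p = 0.0047) and in KO versus WT (0.57 ± 0.18, adjusted p = 0.031). The second call was lost without WT replicate 2, Het replicate 1 or any 1 of the KO libraries (adjusted p up to 0.098). KO versus Het was -0.34 ± 0.18 (adjusted p = 0.26), and passed without WT replicate 1 (adjusted p = 0.012). Neo1, a Dcc relative that also binds repulsive guidance molecules, rose in Het versus WT (0.31 ± 0.05, adjusted p = 0.00017) and fell in KO versus Het (-0.22 ± 0.05, adjusted p = 0.0097), with 0.09 ± 0.05 (adjusted p = 0.16) for KO versus WT.

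Draxin, a secreted netrin-1 and Dcc ligand needed for forebrain commissures, was at 131, 98.8 and 114 CPM in WT, 207, 229 and 251 CPM in Het and 269, 286 and 255 CPM in KO libraries. It rose in KO versus WT (log2 fold change 1.23 ± 0.10, adjusted p = 1.4e-06) and in Het versus WT (0.998 ± 0.10, adjusted p = 1.2e-05). Its KO versus Het value of 0.24 ± 0.10 (adjusted p = 0.13) passed without WT replicate 1 or WT replicate 2 (adjusted p = 0.047 and 0.037). Dscaml1, an adhesion molecule related to the netrin receptor Dscam, was at 67.9 to 71.5 CPM in WT, 74.6 to 84.1 CPM in Het and 113 to 115 CPM in KO libraries, and rose in all 3 comparisons. Its log2 fold changes were 0.72 ± 0.06 (adjusted p = 1.4e-08), 0.18 ± 0.06 (adjusted p = 0.012) and 0.54 ± 0.05 (adjusted p = 2.8e-06). Flrt3, a membrane protein that binds Unc5 and Robo receptors, rose against WT in KO (0.54 ± 0.10, adjusted p = 0.00021) and in Het (0.60 ± 0.10, adjusted p = 0.00011). Its relative Flrt2 rose in KO versus WT (0.45 ± 0.10, adjusted p = 0.0027). The Flrt2 value of 0.22 for Het versus WT (adjusted p = 0.088) passed without Het replicate 3 (adjusted p = 0.003), and that of 0.22 for KO versus Het (adjusted p = 0.15) passed without Het replicate 1 (adjusted p = 0.0096). Lrrc4, the Ntng2 partner, fell in KO versus WT (-0.53 ± 0.07, adjusted p = 6.3e-06) and KO versus Het (-0.32 ± 0.07, adjusted p = 0.0035). Its fall in Het versus WT (-0.21 ± 0.07, adjusted p = 0.020) ended without either WT replicate 2 or Het replicate 3.

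Among the Slit ligands, Slit3 rose in Het versus WT, and its KO versus WT value passed the threshold in 1 of 18 alternatives, the one without WT replicate 1. Slit3 (ENSMUSG00000056427, chromosome 11, 35121224 to 35708507, plus strand) was at 14.99, 7.39 and 8.18 CPM in WT, 20.3, 18.1 and 19.9 CPM in Het and 12.5, 12.2 and 11.5 CPM in KO libraries. Het was highest, and WT replicate 1 stood above every KO library while the other WT libraries stood below. Slit3 rose in Het versus WT (log2 fold change 0.93 ± 0.23, adjusted p = 0.0094), while KO versus WT was 0.24 ± 0.23 (adjusted p = 0.41) and KO versus Het -0.69 ± 0.22 (adjusted p = 0.069). Without WT replicate 1 these values became 1.32 (adjusted p = 4.2e-07) for Het versus WT, 0.63 (adjusted p = 0.00029) for KO versus WT and -0.69 (adjusted p = 0.00011) for KO versus Het. KO versus Het also passed without WT replicate 2 (adjusted p = 0.017), with the replicate block (0.028), with DESeq2 (0.0014), with limma on log2(FPKM + 1) (0.046) and with only the genotypes compared in the fit (adjusted p = 0.00012). The 7 meningeal fibroblast markers summed to 32.0, 18.4 and 18.7 CPM in WT, 37.7, 25.2 and 26.4 CPM in Het and 28.8, 22.6 and 20.9 CPM in KO libraries, none of them at 0. WT replicate 1 was thus the highest WT library for both, and 3 of the 7 markers rose in Het versus WT, while 2 rose and 1 fell in KO versus WT. The part of meninges in the Slit3 values was not tested.

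**Figure D5:**
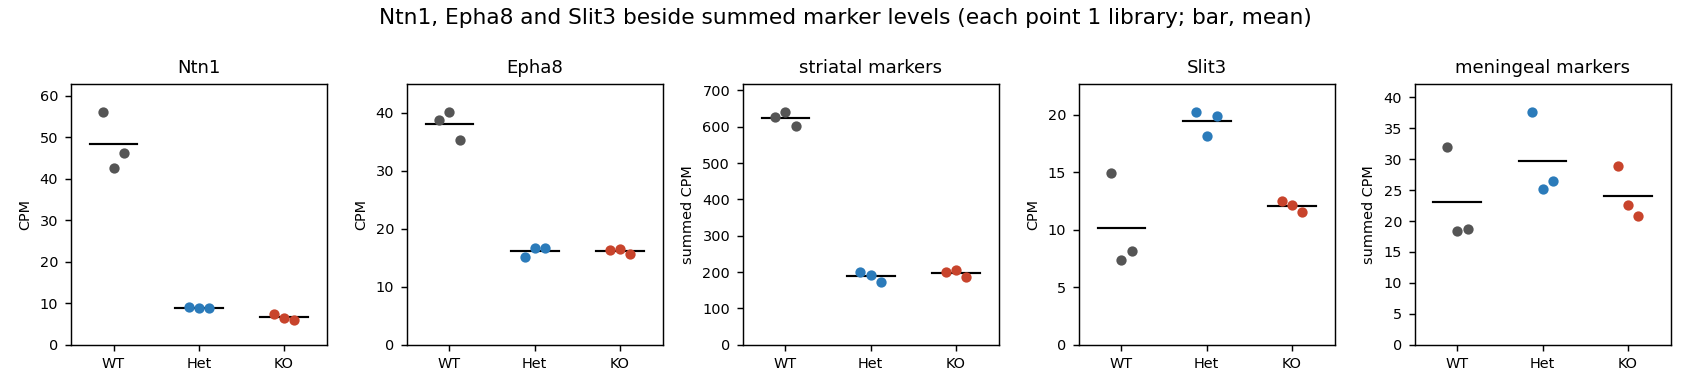
CPM of Ntn1, Epha8 and Slit3 and the summed CPM of 17 striatal neuron and 7 meningeal fibroblast markers (vertical axes, from 0) in each library; bars are means of 3. Ntn1, Epha8 and the striatal sum are high only in the 3 WT libraries, and WT replicate 1 is the highest WT point for Slit3 and for the meningeal sum.

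Slit1, the Slit most abundant per length here, was at 67.3 to 75.0 CPM in WT, 66.5 to 67.8 CPM in Het and 52.0 to 56.9 CPM in KO libraries. It fell in KO versus WT (log2 fold change -0.39 ± 0.06, adjusted p = 4.6e-05) and in KO versus Het (-0.29 ± 0.06, adjusted p = 0.0029). Slit2, the Slit best known from midline repulsion of cortical axons, was at 26.01, 20.3 and 22.9 CPM in WT, 26.03, 30.4 and 29.02 CPM in Het and 22.1, 21.9 and 26.3 CPM in KO libraries. It rose in Het versus WT (0.31 ± 0.10, adjusted p = 0.019), a call lost without WT replicate 2, WT replicate 3 or Het replicate 2. KO versus WT was 0.03 ± 0.10 (adjusted p = 0.85). KO versus Het was -0.28 ± 0.10 (adjusted p = 0.061) and passed without WT replicate 1, WT replicate 2, Het replicate 1 or KO replicate 3.

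Robo1 rose most of all tested guidance genes in KO versus WT. Robo1 (ENSMUSG00000022883, chromosome 16, 72308306 to 73046095, plus strand), a Slit receptor of callosal and corticofugal axons, was at 225, 240.3 and 202 CPM in WT, 299.8, 297 and 305 CPM in Het and 464, 502 and 503 CPM in KO libraries. The genotypes were fully separated, with Het between WT and KO. The rise was 2.2-fold in KO versus WT (log2 fold change 1.14 ± 0.06, adjusted p = 2.8e-10), 1.35-fold in Het versus WT (0.43 ± 0.06, adjusted p = 2.9e-05) and 1.63-fold in KO versus Het (0.70 ± 0.06, adjusted p = 6e-07). The sum of the progenitor markers also stepped up, at 197 to 214 CPM in WT, 270 to 301 CPM in Het and 403 to 431 CPM in KO libraries. Of the 8 markers, 5 were higher in KO versus WT and 6 in KO versus Het. In Het versus WT, 5 were higher and 1 was lower. None of the 8 was at 0, and their part in the Robo1 values was not tested. Robo2, which lies 846 kb from Robo1 on chromosome 16, was at 329 to 364 CPM in WT, 294 to 320.4 CPM in Het and 306 to 336 CPM in KO libraries. Robo2 had a KO versus WT value of -0.11 ± 0.06 (adjusted p = 0.12). Its fall in Het versus WT (-0.18 ± 0.06, adjusted p = 0.019) was lost without WT replicate 2, Het replicate 2 or Het replicate 3.

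Robo4 and Robo3 stand 0.553 kb apart on chromosome 9 and were both low. Robo4 (ENSMUSG00000032125, 37401897 to 37415115, plus strand), the endothelial Robo, was at 5.46, 5.97 and 5.12 CPM in WT, 7.26, 7.31 and 8.09 CPM in Het and 4.71, 4.53 and 5.81 CPM in KO libraries. Het was highest and WT and KO overlapped. Robo4 rose in Het versus WT (log2 fold change 0.45 ± 0.14, adjusted p = 0.012), a call that ended without WT replicate 3 (adjusted p = 0.055), and fell in KO versus Het (-0.59 ± 0.14, adjusted p = 0.0065). The 8 endothelial markers summed to 181 to 185 CPM in WT, 207 to 227 CPM in Het and 199 to 209 CPM in KO libraries, with 6 of 8 higher in Het versus WT and 3 higher and 1 lower in KO versus WT; their part in the Robo4 values was not tested. Robo3 (ENSMUSG00000032128, 37415669 to 37433246, minus strand), the divergent Robo of commissural axons, was at 0.813, 0.445 and 0.689 CPM in WT, 0.246, 0.609 and 0.865 CPM in Het and 0.174, 0.419 and 0.0996 CPM in KO libraries. Every KO library was below every WT library, at levels under 1 CPM. The Robo3 fall in KO versus WT (-1.51 ± 0.54, adjusted p = 0.025) was lost without WT replicate 1, WT replicate 3, KO replicate 1 or KO replicate 3 (adjusted p up to 0.11), and KO versus Het (-1.36 ± 0.53, adjusted p = 0.090) passed without Het replicate 1 or KO replicate 2.

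Of 7 Slit-Robo partners outside the naming rule, 1 was higher and 2 were lower in KO versus WT. In Het versus WT 1 was lower, and in KO versus Het 1 was higher. These shares of 42.9%, 14.3% and 14.3% stand beside 52.8%, 45.9% and 16.7% of all genes. Dag1, which encodes the Slit-binding matrix receptor dystroglycan, was at 202 to 215 CPM in WT, 156 to 163 CPM in Het and 146 to 159 CPM in KO libraries. Dag1 fell in KO (log2 fold change -0.45 ± 0.05, adjusted p = 1.8e-06) and in Het (-0.39 ± 0.05, adjusted p = 1.2e-05) against WT.

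Among ephrin-A ligands, Efna1 and Efna4 rose and Efna2 fell in KO versus WT. Efna1 (ENSMUSG00000027954, chromosome 3, 89271733 to 89281142, minus strand) was at 2.66, 2.58 and 2.54 CPM in WT, 3.85, 3.99 and 3.01 CPM in Het and 6.03, 5.79 and 4.28 CPM in KO libraries. The genotypes did not overlap. Efna1 rose 2.06-fold in KO versus WT (log2 fold change 1.05 ± 0.18, adjusted p = 9.8e-05). Its rise in Het versus WT (0.48 ± 0.18, adjusted p = 0.040) was lost without any 1 WT library, Het replicate 1 or Het replicate 2, and that in KO versus Het (0.57 ± 0.17, adjusted p = 0.028) without Het replicate 3, KO replicate 1 or KO replicate 2. Efna4 (ENSMUSG00000028040, chromosome 3, 89333390 to 89338028, minus strand) was at 6.14, 6.41 and 6.03 CPM in WT, 9.30, 10.5 and 11.3 CPM in Het and 10.6, 11.1 and 10.8 CPM in KO libraries. Het and KO overlapped, and both were higher than WT. Efna4 rose by 0.81 ± 0.11 on the log2 scale in KO (adjusted p = 1.5e-05) and by 0.75 ± 0.11 in Het (adjusted p = 5.1e-05) against WT.

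Efna3 lies between these genes, 32.8 kb from Efna1 and 10.4 kb from Efna4, and went the other way in Het versus WT. It was at 60.4 to 65.2 CPM in WT, 41.5 to 44.6 CPM in Het and 52.1 to 62.4 CPM in KO libraries. Efna3 fell in Het versus WT (log2 fold change -0.57 ± 0.07, adjusted p = 8.2e-06) and rose in KO versus Het (0.44 ± 0.07, adjusted p = 0.00038), with -0.12 ± 0.07 (adjusted p = 0.16) in KO versus WT. Both Efna3 and Efna4 overlap exons of a gene on the other strand, and 10.5% and 8.8% of their 31-base words recur in other genes, so their counts are less certain. Efna2 was at 49.2 to 61.0 CPM in WT, 37.2 to 44.5 CPM in Het and 37.7 to 45.0 CPM in KO libraries, and fell in KO (-0.44 ± 0.09, adjusted p = 0.00085) and in Het (-0.40 ± 0.09, adjusted p = 0.0024) against WT. Efna5, which with EphA receptors maps thalamic axons onto the cortex, was at 13.2 to 18.1 CPM in all libraries and was called in no comparison, although KO versus WT passed without KO replicate 2 (-0.29, adjusted p = 0.042).

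Efnb1 rose stepwise with the labelled genotype. Efnb1 (ENSMUSG00000031217, chromosome X, 99136130 to 99148991, plus strand), a transmembrane ephrin of cortical progenitors, was at 81.1, 97.8 and 92.3 CPM in WT, 111, 102 and 113 CPM in Het and 154, 153 and 146 CPM in KO libraries. The 3 genotypes did not overlap. Its log2 fold change was 0.74 ± 0.06 (adjusted p = 6.8e-08) in KO versus WT, 0.27 ± 0.06 (adjusted p = 0.0027) in Het versus WT and 0.47 ± 0.06 (adjusted p = 6.4e-05) in KO versus Het; the progenitor marker sums given beside Robo1 moved the same way, and their part was not tested. Efnb2, also an arterial marker, was at 204 to 234 CPM in WT, 225 to 269 CPM in Het and 247 to 256 CPM in KO libraries. Its rise in KO versus WT (0.22 ± 0.07, adjusted p = 0.012) was lost without WT replicate 1 or WT replicate 3, and that in Het versus WT (0.17 ± 0.07, adjusted p = 0.049) without WT replicate 1, WT replicate 3, Het replicate 1, KO replicate 1 or KO replicate 2; without Het replicate 1 it was 0.10. Efnb3, a midline and axonal ephrin, was at 372 to 426 CPM in WT, 329.6 to 362 CPM in Het and 375 to 442 CPM in KO libraries. It fell in Het versus WT (-0.23 ± 0.07, adjusted p = 0.012; lost without WT replicate 1 or Het replicate 1) and rose in KO versus Het (0.27 ± 0.07, adjusted p = 0.011; lost without KO replicate 1 or KO replicate 2).

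Of the 8 EphA receptors tested, 5 fell and 2 rose in KO versus WT. Epha8 (ENSMUSG00000028661, chromosome 4, 136929419 to 136956816, minus strand) was at 38.8, 40.2 and 35.3 CPM in WT, 15.2, 16.6 and 16.7 CPM in Het and 16.3, 16.5 and 15.6 CPM in KO libraries. Every WT library was above every other library, and Het and KO overlapped. Epha8 fell 2.36-fold in KO (log2 fold change -1.24 ± 0.08, adjusted p = 1.3e-09) and 2.35-fold in Het (-1.23 ± 0.08, adjusted p = 2.7e-09) against WT. Its KO versus Het value was 0.00 within the SE of 0.08 (adjusted p = 0.98). The striatal marker sums given beside Ntn1 were likewise high in WT only, and their part in the Epha8 values was not tested. Ephb2 lies 93.4 kb from Epha8 on the same strand of chromosome 4.

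Epha7 and Epha6 also fell. Epha7 (ENSMUSG00000028289, chromosome 4, 28813131 to 28967499, plus strand), a receptor that patterns corticothalamic axons, was at 89.3, 93.0 and 79.5 CPM in WT, 75.3, 70.5 and 63.2 CPM in Het and 54.9, 57.0 and 57.5 CPM in KO libraries. The genotypes did not overlap, with Het between the others. Its log2 fold change was -0.63 ± 0.07 (adjusted p = 1.4e-06) in KO versus WT, -0.33 ± 0.07 (adjusted p = 0.0013) in Het versus WT and -0.30 ± 0.07 (adjusted p = 0.0074) in KO versus Het. Epha6 (ENSMUSG00000055540, chromosome 16, 59653483 to 60605531, minus strand), whose window above holds 5 E-boxes, was at 11.3, 8.78 and 8.82 CPM in WT, 11.7, 11.3 and 11.9 CPM in Het and 6.73, 5.87 and 5.15 CPM in KO libraries. KO stood below both other genotypes, which overlapped. Epha6 fell in KO versus WT (-0.71 ± 0.13, adjusted p = 0.00028) and in KO versus Het (-0.97 ± 0.13, adjusted p = 6.4e-05), with 0.27 ± 0.13 (adjusted p = 0.097) in Het versus WT, which passed without WT replicate 1 (0.40, adjusted p = 0.025). Its exons overlap a gene on the other strand.

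Epha2 and Epha10 were the least abundant EphA receptors tested. Epha2 (ENSMUSG00000006445, chromosome 4, 141301240 to 141329384, plus strand), known from epithelia, was at 1.90, 1.56 and 1.68 CPM in WT, 0.943, 1.22 and 1.52 CPM in Het and 3.45, 4.46 and 2.23 CPM in KO libraries. Every KO library was above every other library. Epha2 rose in KO versus WT (log2 fold change 0.97 ± 0.25, adjusted p = 0.0033) and in KO versus Het (1.44 ± 0.25, adjusted p = 8e-04), with -0.47 ± 0.27 (adjusted p = 0.18) in Het versus WT. Epha10 (ENSMUSG00000028876, chromosome 4, 124880899 to 124917800, plus strand), a receptor without kinase activity, was at 5.83, 3.12 and 4.61 CPM in WT, 1.48, 2.81 and 1.70 CPM in Het and 2.72, 2.06 and 3.22 CPM in KO libraries. WT and KO overlapped, while every Het library was below every WT library. Epha10 fell in Het versus WT (-1.17 ± 0.27, adjusted p = 0.0031), and its fall in KO versus WT (-0.75 ± 0.26, adjusted p = 0.027) was lost without WT replicate 1, WT replicate 3, KO replicate 1 or KO replicate 2 (adjusted p up to 0.12). Some Epha10 exons overlap a gene on the other strand.

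The remaining EphA receptors were abundant. Epha3 was at 56.2 to 59.1 CPM in WT, 65.7 to 97.0 CPM in Het and 78.1 to 84.1 CPM in KO libraries, and rose in KO (log2 fold change 0.51 ± 0.12, adjusted p = 0.0064) and in Het (0.57 ± 0.12, adjusted p = 0.0045) against WT. Without Het replicate 3, Epha3 was also called in KO versus Het (-0.22, adjusted p = 0.020). Epha4, a receptor of corticospinal axons that binds ephrins of both classes, was at 203 to 251 CPM in WT, 228 to 254 CPM in Het and 198 to 212 CPM in KO libraries. Its fall in KO versus WT (-0.19 ± 0.07, adjusted p = 0.034) was lost without WT replicate 1, WT replicate 2, Het replicate 3, KO replicate 1 or KO replicate 3, and that in KO versus Het (-0.26 ± 0.07, adjusted p = 0.018) without Het replicate 1, Het replicate 3, KO replicate 1 or KO replicate 3. Epha5 was at 136 to 164 CPM over all libraries and was called in no comparison; without WT replicate 3 it passed in KO versus WT (-0.18, adjusted p = 0.017) and in KO versus Het (-0.17, adjusted p = 0.036).

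Of the 5 EphB receptors, 3 rose and 1 fell in KO versus WT. Ephb6 (ENSMUSG00000029869, chromosome 6, 41605482 to 41620509, plus strand), a receptor without kinase activity, was at 107, 125 and 120.3 CPM in WT, 79.8, 96.0 and 105 CPM in Het and 65.8, 63.5 and 62.4 CPM in KO libraries. The genotypes did not overlap, and KO was lowest. Ephb6 fell 1.84-fold in KO versus WT (log2 fold change -0.88 ± 0.09, adjusted p = 3.4e-06), by 0.32 ± 0.09 on the log2 scale in Het versus WT (adjusted p = 0.0087) and by 0.55 ± 0.09 in KO versus Het (adjusted p = 0.00099). Without Het replicate 1 the Het versus WT value was -0.21 (adjusted p = 0.023). Ephb4 (ENSMUSG00000029710, chromosome 5, 137350109 to 137378669, plus strand), the venous endothelial receptor for Efnb2, was at 10.7, 10.9 and 9.60 CPM in WT, 12.7, 11.7 and 12.2 CPM in Het and 16.7, 16.4 and 17.7 CPM in KO libraries, again without overlap. It rose in KO versus WT (0.71 ± 0.09, adjusted p = 7.5e-06) and KO versus Het (0.47 ± 0.09, adjusted p = 0.0017), and its rise in Het versus WT (0.24 ± 0.09, adjusted p = 0.049) was lost without any 1 of WT replicates 1, 2 and 3, Het replicate 1, Het replicate 3, KO replicate 1 or KO replicate 2. The endothelial marker sums given beside Robo4 had overlapping ranges in Het and KO, and their part in the Ephb4 values was not tested. Exons of Ephb4 and Ephb1 overlap genes on the other strand.

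Ephb1, which turns axons away from the midline, was at 134 to 150.0 CPM in WT, 151 to 160.3 CPM in Het and 194 to 203 CPM in KO libraries. It rose in KO versus WT (log2 fold change 0.48 ± 0.05, adjusted p = 1.3e-06) and in KO versus Het (0.36 ± 0.05, adjusted p = 0.00022). Its Het versus WT value of 0.13 ± 0.05 (adjusted p = 0.067) passed without WT replicate 2 or Het replicate 1. Ephb2, a dendritic spine and commissural receptor, was at 162 to 178 CPM in WT, 193 to 230.0 CPM in Het and 191 to 215 CPM in KO libraries, and rose in KO (0.25 ± 0.07, adjusted p = 0.0052) and in Het (0.31 ± 0.07, adjusted p = 0.0016) against WT. Ephb3 was at 19.2 to 27.9 CPM over all libraries and was called in no comparison.

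Downstream of the receptors, 9 of 26 Eph and ephrin effectors rose and 6 fell in KO versus WT. In Het versus WT 4 rose and 7 fell, and in KO versus Het 5 rose and 3 fell. In these comparisons 57.7%, 42.3% and 30.8% of the effectors were called, beside 52.8%, 45.9% and 16.7% of all genes. Ngef, which encodes ephexin-1, the exchange factor that EphA receptors use to activate RhoA, was at 77.7, 75.1 and 76.6 CPM in WT, 20.04, 23.4 and 21.4 CPM in Het and 32.7, 30.3 and 28.4 CPM in KO libraries. Het was lowest and no groups overlapped. Ngef fell in KO (log2 fold change -1.33 ± 0.08, adjusted p = 3.8e-10) and in Het (-1.82 ± 0.08, adjusted p = 1.3e-11) against WT, and rose in KO versus Het (0.49 ± 0.08, adjusted p = 0.00027). It was thus high in WT like the striatal marker sums, whose part was not tested. Of 12 actin and GTPase effectors shared by the pathways, 3 rose in KO versus WT. In Het versus WT 2 rose and 3 fell, and in KO versus Het 2 rose and 1 fell. Their shares called were 25%, 41.7% and 25%, beside the same shares of all genes. Rock1, a RhoA-dependent kinase, rose against WT in KO (0.84 ± 0.12, adjusted p = 2.3e-05) and in Het (0.66 ± 0.12, adjusted p = 0.00031). Over the 57 partner and effector genes together, 30 (52.6%), 26 (45.6%) and 18 (31.6%) were called in the 3 comparisons. The shares of all genes were 52.8%, 45.9% and 16.7%.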

How the data were processed

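Each of the 9 libraries has a column of unnormalized counts and a column of FPKM, both deposited. HTSeq 0.6.1, TopHat2 2.0.9, Bowtie2 2.0.6, DESeq 1.10.1 and the build mm10 appear in the submitters' processing notes, with no role stated. The deposited FPKM equal counts divided by 1 length and the library total, so they are no second measurement. The sources used here do not give how multi-mapped reads or strand were handled.

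Positions and shared 31-base words came from GENCODE M21. Counts were fitted with edgeR 4.0.16 in R 4.3.3: filterByExpr (minimum count 10, total 15; 15271 genes holding 99.9% of counts), TMM, robust glmQLFit over the 9 libraries (quasi-likelihood F-test), and Benjamini-Hochberg adjustment over all 15271 genes at 0.05. SE is the log2 fold change divided by the square root of F. Genes with a call of at least 1.5-fold in any comparison, and Tcf4, are given per library; partners are Dcc, Neo1 and the 8 with the largest KO versus WT calls. Some genes of the partner and marker lists are not reported here and were left out of their counts and sums. Members, lists and rules were chosen with earlier results of these data known. The procedure was tested on simulated counts. Alternatives used DESeq2 1.42.0 and limma 3.58.1, other scaling, filters and pseudocounts, a replicate block, and each library left out; the background at a mean log2 CPM of at least 3 was added after seeing the data. Figures used Python 3.11.15 and matplotlib 3.10.9.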

Additional observations from a re-analysis of the deposited data

How the results depend on the processing

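Over 18 alternatives (other scaling factors, filters, DESeq2, limma on log2 FPKM, a fit of 2 genotypes, a replicate block and each library left out), 21 of 25 guidance-gene calls in KO versus WT, 17 of 26 in Het versus WT and 13 of 19 in KO versus Het kept their direction and side of the threshold, and no called value changed sign. Losses named gene by gene above mostly come from leaving out 1 library. Some of those calls were also lost with other settings, such as Efna1 in Het versus WT with the DESeq2 test (adjusted p = 0.066). Some uncalled values also passed with other settings. Flrt2 in Het versus WT passed with upper-quartile factors (adjusted p = 0.04) and with no filter (adjusted p = 0.02). Ephb1 in Het versus WT passed with upper-quartile factors (adjusted p = 0.021). Neo1 in KO versus WT passed with limma on log2(FPKM + 1) (adjusted p = 0.047). In KO versus Het, Epha5, Slit2, Draxin and Tcf4 passed with no filter and with only the genotypes compared. Requiring at least 1.5-fold left 3420 genes in KO versus WT, with 8 guidance genes higher. It left 2518 in Het versus WT, with 2 higher and 3 lower, and 735 in KO versus Het, with 3 higher and 3 lower. Leaving out 1 library gave 9 to 15 guidance genes higher in Het versus WT (9 without WT replicate 3). In KO versus Het it gave 1432 to 2561 genes called (1432 without KO replicate 2, 1467 without KO replicate 1) and 7 to 10 guidance genes higher (7 without KO replicate 2). The cause of these losses was not tested.

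Uncalled values changed sign when 1 library was left out, with log2 ranges as follows. In KO versus WT, Efnb3 ran from -0.0069 to 0.1164 and Slit2 from -0.0655 to 0.1157. In Het versus WT, Efna5 ran from -0.1431 to 0.0081, Epha4 from -0.0115 to 0.1378, Epha5 from -0.0123 to 0.1078, Ephb3 from -0.1651 to 0.07 and Robo3 from -0.5498 to 0.1949. In KO versus Het, Efna2 ran from -0.1357 to 0.0049, Efna4 from -0.0214 to 0.1219, Efnb2 from -0.0081 to 0.1184, Epha3 from -0.2159 to 0.0396, Epha8 from -0.0543 to 0.0146, Ephb2 from -0.1158 to 0.0206 and Flrt3 from -0.143 to 0.0615.

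No pairing by replicate number was seen. Deviations of same-numbered libraries from their genotype means correlated between -0.106 and 0.084 over 9 pairs, beside -0.137 to 0.098 over 18 other pairs. Deviations within a genotype are tied to each other through their mean, so this check cannot show that the libraries were unpaired. With the replicate block, 7775, 6641 and 2166 genes were called in KO versus WT, Het versus WT and KO versus Het, and the guidance-gene calls lost were Epha10 in KO versus WT, Efnb2 and Ephb4 in Het versus WT and Ntn4 in KO versus Het, while Slit3 in KO versus Het was gained (adjusted p = 0.028).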

Other observations

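Summed by family, FPKM changed unevenly with the labelled genotype. The secreted netrins summed to 16.0 to 19.2 FPKM in WT, 6.83 to 7.01 in Het and 7.22 to 7.56 in KO libraries, while their Unc5 receptors summed to 51.2 to 57.7, 61.5 to 66.4 and 66.2 to 73.7 FPKM. Robo receptors summed to 123 to 134 FPKM in WT, 129 to 136 in Het and 150 to 163 in KO libraries, and Slit ligands to 30.4 to 38.8, 40.9 to 42.4 and 30.2 to 33.5 FPKM. Ephrin-B ligands reached 251 to 254 FPKM in WT, 259 to 271 in Het and 296 to 316 in KO libraries, whereas ephrin-A ligands were lowest in Het, at 63.3 to 68.3 FPKM beside 78.8 to 85.4 in WT and 75.0 to 78.8 in KO libraries. These sums are descriptions with no test, and abundant members dominate them.

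The tested guidance genes are long, with a median span of 87.8 kb beside 23.6 kb for 15184 tested genes with a position. Some neighbouring guidance genes had unlike values in KO versus WT. Robo1 rose by 1.14 on the log2 scale beside -0.11 for Robo2, and Epha8 fell by 1.24 beside 0.25 for Ephb2. Robo3, which had few counts and lost its call in some alternatives, had -1.51 beside -0.14 for Robo4. Efna3 had -0.12 between Efna1 at 1.05 and Efna4 at 0.81. The values of Robo2, Robo4 and Efna3 were not called. These are examples, not a tally of all neighbouring pairs.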
